A study of Mus musculus with 3 samples.

Results

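Open chromatin of cells lacking Seh1 was compared with that of control cells after 1 day of differentiation, at the autosomal sites where both libraries had a called ATAC-seq peak. Peaks of the control and the Seh1cKO list were joined where they overlapped by at least 1 bp, and a joined site with a peak from each list was kept. This gave 35291 shared sites, out of 122408 joined sites of both libraries and 177235 joined sites when the third library of the study, control progenitors, was added. The shared sites held 36691 of the 45095 autosomal Seh1cKO peaks (81.4%) and 36204 of the 114917 autosomal control peaks (31.5%). What is described below is therefore the chromatin that was open enough to be called in both libraries, and 78713 control peaks and 8404 Seh1cKO peaks with no counterpart lie outside it.

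Oligodendrocyte progenitors divide and migrate through the brain and then differentiate into oligodendrocytes, which wrap axons in myelin. Thyroid hormone in place of the mitogen PDGF-AA starts this step in culture. Accessible chromatin is found mainly at gene starts, many of which are open in most cell types, and at enhancers in introns and between genes, which differ more between cell types and stages. ATAC-seq reads both, because a transposase inserts sequencing adapters where DNA is exposed. Seh1, encoded by Seh1l, is a nucleoporin, a building block of the nuclear pore complex through which RNA and protein pass between nucleus and cytoplasm. Some nucleoporins also contact chromatin. Olig2 is a basic helix-loop-helix factor that specifies the oligodendrocyte lineage, and Brd7 is a subunit of PBAF, a remodelling complex of the SWI/SNF family.

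All cells came from C57BL/6 pups of postnatal day 4 to 7. They were taken from dissociated forebrain cortex by immunopanning, in which antibodies on a dish capture cells, first against GalC and then against O4. One group was wild type and the other had the genotype Seh1cKO. Both were kept for 1 day in T3 (triiodothyronine, a thyroid hormone) at 60 nM, with PDGF-AA, bFGF and NT3 taken out of the medium. The wild-type progenitor library, labelled DO and read here as day 0, had the growth factors and no T3. The driver of the knockout, the deleted part of Seh1l, and whether animals were pooled are not given in the sources used here. Each group was 1 library of 50000 cells. Replicate spread therefore cannot be estimated for any value below, and genotype and library cannot be told apart. The 95% intervals of a site's ratio cover counting error only. Those of medians and of promoter shares cover spread over the sites or promoters of these same libraries. No interval covers spread between replicates.

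The control library held 18260883 fragments and the Seh1cKO library 10845533, which was 59.4% of the control. The fragment size given in the file headers was close, at 208 and 209 bp. The lowest pileup (overlapping fragments at the summit) that was called was 8 in control and 6 in Seh1cKO cells. To set both on 1 scale, the highest summit pileup of each library in a site was expressed per 1000000 fragments of that library (FPM). The log2 ratio of Seh1cKO to control was then centred on the median shared site. That median was -0.14 before centring (0.909-fold), so each ratio below would be 0.14 lower without it. Of the genes that define the labelled lineage, 29 of 30 progenitor genes and 26 of 30 myelin genes had a shared site. So did 20 of 20 astrocyte, 20 of 24 neuron, 17 of 24 endothelial and mural and 12 of 22 microglia and macrophage markers, so a shared site at a list's genes does not tell the lineage from astrocytes or neurons.

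The promoters printed here come from both extremes of the ratio at gene starts and are shown so that the sequence can be read beside the values. The 8 differ in their content of CG dinucleotides, which over the promoters of all shared sites had the same median in each of 5 groups of the ratio. The first 4 are the promoters with the lowest Seh1cKO to control ratio among strong sites that hold the whole promoter, and the last 4 those with the highest. Each is the 250 bases before a RefSeq transcription start (GRCm38.p6), 5′ to 3′ on the gene's strand, with every CG in capitals. Nfasc (neurofascin, an adhesion protein of paranodes and nodes) is at chr1:132707327-132707576 on the minus strand, Neu4 (a sialidase) at chr1:94020243-94020492 on the plus strand, Lonp2 (a peroxisomal protease) at chr8:86651319-86651568 on the plus strand and Arhgap32 (a GTPase-activating protein) at chr9:32016375-32016624 on the plus strand.
Nfasc: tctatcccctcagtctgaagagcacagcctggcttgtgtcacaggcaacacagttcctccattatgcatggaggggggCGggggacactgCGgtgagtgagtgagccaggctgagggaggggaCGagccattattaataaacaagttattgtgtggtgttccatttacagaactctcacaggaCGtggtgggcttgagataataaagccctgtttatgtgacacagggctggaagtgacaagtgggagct
Neu4: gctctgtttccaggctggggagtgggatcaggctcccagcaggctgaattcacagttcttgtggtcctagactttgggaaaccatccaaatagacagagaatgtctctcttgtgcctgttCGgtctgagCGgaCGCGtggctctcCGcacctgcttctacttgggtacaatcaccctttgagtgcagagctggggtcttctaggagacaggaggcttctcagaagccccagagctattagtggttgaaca
Lonp2: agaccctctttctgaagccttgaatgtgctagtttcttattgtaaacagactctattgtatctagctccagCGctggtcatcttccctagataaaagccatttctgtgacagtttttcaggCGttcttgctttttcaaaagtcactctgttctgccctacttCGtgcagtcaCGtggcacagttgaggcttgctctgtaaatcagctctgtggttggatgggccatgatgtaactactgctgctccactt
Arhgap32: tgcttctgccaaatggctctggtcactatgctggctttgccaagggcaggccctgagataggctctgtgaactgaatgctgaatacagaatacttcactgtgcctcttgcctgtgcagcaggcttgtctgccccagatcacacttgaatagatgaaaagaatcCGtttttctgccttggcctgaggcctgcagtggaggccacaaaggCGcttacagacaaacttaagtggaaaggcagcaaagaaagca

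The high end was made of Blm (a helicase of DNA repair) at chr7:80534999-80535248 on the minus strand, Bysl (a ribosome assembly factor) at chr17:47611493-47611742 on the minus strand, Zfp628 (a zinc finger protein) at chr7:4914967-4915216 on the plus strand and Tollip (an adaptor in Toll-like receptor signalling) at chr7:141902462-141902711 on the minus strand.
Blm: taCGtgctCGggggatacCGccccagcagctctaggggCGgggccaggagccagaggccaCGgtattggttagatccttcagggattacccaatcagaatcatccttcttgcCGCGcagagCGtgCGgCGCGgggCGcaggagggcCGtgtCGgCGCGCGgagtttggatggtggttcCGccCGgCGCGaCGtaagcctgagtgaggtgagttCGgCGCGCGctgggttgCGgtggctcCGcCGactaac
Bysl: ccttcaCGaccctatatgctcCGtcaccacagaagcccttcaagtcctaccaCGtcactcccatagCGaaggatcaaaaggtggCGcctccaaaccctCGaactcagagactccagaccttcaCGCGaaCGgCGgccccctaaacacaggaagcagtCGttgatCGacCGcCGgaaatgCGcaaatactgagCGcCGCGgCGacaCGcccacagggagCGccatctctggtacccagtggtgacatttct
Zfp628: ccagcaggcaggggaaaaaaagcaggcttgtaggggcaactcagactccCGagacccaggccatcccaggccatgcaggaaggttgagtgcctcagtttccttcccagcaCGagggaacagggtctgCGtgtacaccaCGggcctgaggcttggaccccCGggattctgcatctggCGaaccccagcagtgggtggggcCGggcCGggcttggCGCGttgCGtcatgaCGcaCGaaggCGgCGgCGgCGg
Tollip: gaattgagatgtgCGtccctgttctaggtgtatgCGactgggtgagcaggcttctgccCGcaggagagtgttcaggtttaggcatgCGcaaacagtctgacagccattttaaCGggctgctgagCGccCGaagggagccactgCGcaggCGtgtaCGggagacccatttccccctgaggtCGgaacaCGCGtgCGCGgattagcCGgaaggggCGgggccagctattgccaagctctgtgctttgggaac

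The printed low promoters held 2 to 5 CG dinucleotides and the printed high ones 17 to 29. Over all 6066 shared sites that held a whole RefSeq promoter (300 bases, 250 before and 50 after the start), 25 were at least 2-fold lower in Seh1cKO, and 9 of these (36.0%, exact 95% interval 17.97 to 57.48%) had fewer than 10 CG. Of the 5900 promoters between the limits, 340 (5.76%) had so few, as had 6 of the 141 (4.26%) that were at least 2-fold higher. Among all 21263 tabulated promoters the share was 43.2%. The group at least 2-fold lower is small and its interval wide. Most CG-poor promoters did not stand apart: the 355 of them had a median ratio of 0.04, with 9 at least 2-fold lower, and the 5711 others a median of 0.17, with 16 at least 2-fold lower. Split by the ratio into 5 groups of like size, promoters had a median of 24 CG in each. The letters CCAAT, searched on both strands, were in 36.0% of promoters in the lowest group and in 44.8%, 46.4%, 42.8% and 42.7% of the groups above it, against 38.2% of all tabulated promoters.

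Across all shared sites, 2727 (7.73%) were at least 2-fold lower in Seh1cKO after centring and 1161 (3.29%) at least 2-fold higher. Lower sites made up 70.1% of these calls, and 85.6% without centring (3670 lower, 615 higher). Counting error is large at weak sites, so the sites were divided by the summed pileup of both libraries. Among the 6806 strong sites, those with a summed pileup of at least 100, 609 (8.95%) were at least 2-fold lower and 49 (0.72%) at least 2-fold higher, which puts lower sites at 92.5% of calls when such sites alone are centred (603 lower, 49 higher). The same share was 80.6% (741 lower, 178 higher) when both peaks had a −log10 q of at least 10. The counting interval lay wholly below -1 at 202 shared sites (0.572%), 200 of them away from gene starts, and wholly above 1 at 8 (0.0227%). Among strong sites these counts were 114 (1.67%) and 0 (0%).

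The ratio moved with pileup. The median was 0.43 at the 1546 sites with a summed pileup of 14 to 20, where 0 were at least 2-fold lower and 80 at least 2-fold higher. It was 0.18 at 21 to 30, -0.11 at 31 to 50, -0.14 at 51 to 100 and -0.02 at 101 to 200. At the weakest sites the lowest pileups that were called limit which ratios can occur. The lower tail opened in the middle of the range: the 10th percentile was -1.18 for sites of 51 to 100 fragments and -1.01 for those of 101 to 200, while the 90th percentile was 0.60 and 0.52.

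**Figure D1:**
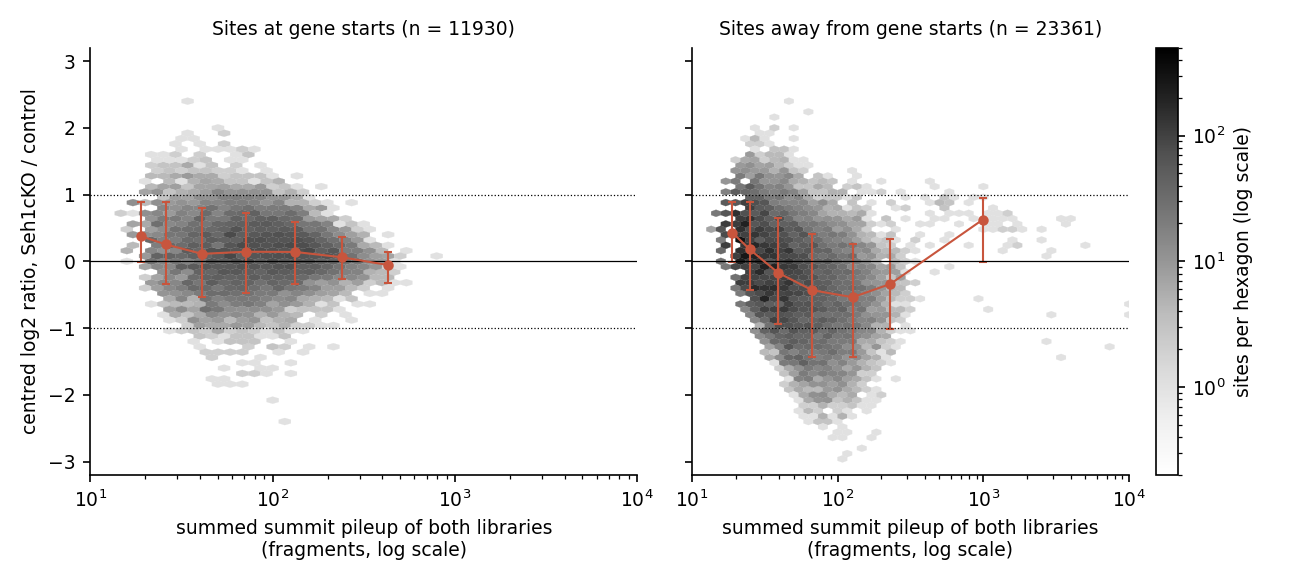
Centred log2 ratio of Seh1cKO to control (vertical) against the summed summit pileup of both libraries in fragments (horizontal, log scale). The left panel holds 11930 shared sites at gene starts or at either end of genes with no tabulated start, and the right panel 23361 elsewhere. Shading is the number of sites per hexagon, red points are medians within pileup strata of at least 20 sites with bars from the 10th to the 90th percentile, and sites above 10000 fragments are not drawn. Sites in the left panel keep a median near or above 0 in every stratum drawn up to 400 fragments. Sites elsewhere reach a median of -0.54 at 101 to 200 fragments with a long lower tail.

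Position relative to genes separated the sites. Start-window sites lay within 1000 bp of a gene start or, at 2211 sites, of either end of a gene with no tabulated start. They had about the same signal in both libraries, and most of the low sites lay inside or between genes. Over all shared sites, 100 of 11930 start-window sites (0.838%) were at least 2-fold lower and 345 (2.89%) at least 2-fold higher. Of the 23361 other sites, 2627 (11.2%) were lower and 816 (3.49%) higher. At the 4314 strong start-window sites the median ratio was 0.12, and 21 (0.487%) were at least 2-fold lower and 23 at least 2-fold higher. The 2492 other strong sites had a median of -0.49, with 588 (23.6%) at least 2-fold lower and 26 at least 2-fold higher. Strong sites at tabulated starts had a median summit pileup of 4.98 FPM in control and 5.07 FPM in Seh1cKO cells. Strong sites elsewhere had medians of 5.26 and 3.50 FPM. A low site reaches a summed pileup of at least 100 mainly through its control fragments, so the control levels of the strong sites are set in part by that limit. Over all shared sites the medians in control and Seh1cKO cells were 2.63 and 2.67 FPM at start windows and 1.48 and 1.20 FPM elsewhere.

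The position classes away from starts were alike in direction. Within genes, 1337 strong sites had a median of -0.56 and 356 (26.6%) were at least 2-fold lower. Within 100 kb of a gene, 817 sites had a median of -0.36 and 139 (17.01%) were lower. Beyond 100 kb, 338 sites had a median of -0.61 and 93 (27.5%) were lower. From 31 to 400 fragments the gap between classes was present at matched pileup. For a summed pileup of 51 to 100 the medians were 0.14 at start windows and -0.43 elsewhere. For 201 to 400 they were 0.06 and -0.34. At weaker sites the gap was small for 21 to 30, with 0.25 and 0.18, and absent for 14 to 20, with 0.38 and 0.43. Above 400 the order turned, with -0.05 at start windows and 0.52 elsewhere, in a stratum of 122 sites. Of the 88 such sites away from starts, 30 lay in 1 stretch of 35 kb at chr9:3000007-3035275, and the median of the other 58 was 0.29.

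Among strong sites the median ratio became lower with distance from the nearest tabulated start. It was 0.12 under 1 kb (3605 sites), -0.23 from 1 to 5 kb (250 sites), -0.40 from 5 to 20 kb (471 sites), -0.52 from 20 to 100 kb (917 sites) and -0.57 beyond 100 kb (814 sites). The share at least 2-fold lower was 0.277%, 16.4%, 21.4%, 24.6% and 25.2% in the same order. Over all shared sites the medians were 0.14, -0.02, -0.11, -0.11 and -0.11, with no further fall beyond 5 kb. The shares at least 2-fold lower were then 0.635%, 6.99%, 11.2%, 11.4% and 11.8%. Low sites count as strong mainly through their control fragments, so the trend is given for strong sites only.

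**Figure D2:**
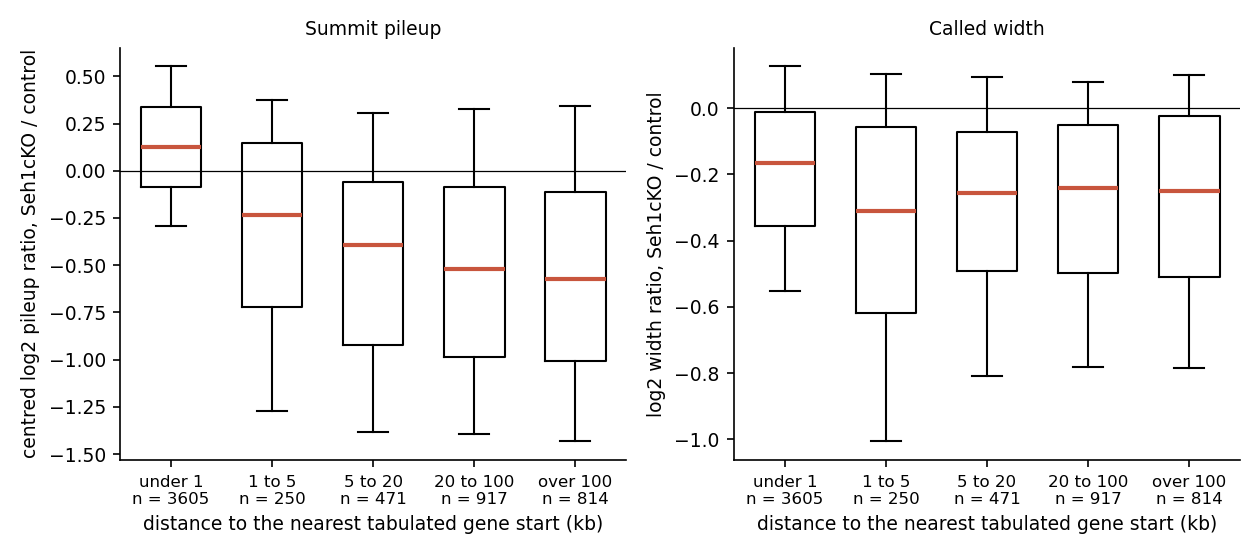
Boxes show the centred log2 ratio of summit pileup (left) and the log2 ratio of called width (right), Seh1cKO over control, for strong shared sites by distance in kb to the nearest tabulated gene start. Red lines are medians, boxes span the quartiles and whiskers the 10th to 90th percentile. The pileup median falls from 0.12 under 1 kb to -0.57 beyond 100 kb, and width is below 0 in every class.

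Peaks were also narrower in Seh1cKO. The median log2 ratio of called width was -0.32, with median widths of 522 bp in control and 386 bp in Seh1cKO cells, and 26537 sites (75.2%) were narrower. The width ratio rose with the pileup ratio across sites (Spearman correlation 0.427, Pearson correlation 0.459, over 35291 sites of the same pair of libraries, as a description). The 609 strong sites with at least 2-fold lower pileup had a median log2 width ratio of -0.51, against -0.18 at the 6148 strong sites between the limits and -0.09 at the 49 higher sites. A called width depends on depth as well as on signal, and the part of depth was not tested.

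The 2 sites that narrowed most were also among the 12 lowest by pileup. The site 282362 bp from Has2, a hyaluronan synthase gene, was 783 bp wide in control and 147 bp in Seh1cKO, and a site near Septin5, which encodes a septin of secretory vesicles, went from 817 to 166 bp. Sites within Atg13 (autophagy initiation) and Zfp827 (a zinc finger protein) narrowed from 854 to 177 bp and from 1387 to 296 bp, each with pileup at least 2-fold lower. In the opposite direction, sites at Cdk5r1, an activator of the kinase Cdk5, and near Rhbg, an ammonium transporter, were wider in Seh1cKO, at 609 against 261 bp and 585 against 269 bp. Their pileup ratios were -0.37 (interval -1.04 to 0.26) and 0.56 (-0.04 to 1.14).

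Of the 12 lowest strong sites, 5 lay over 100 kb from the nearest gene, 5 within a gene, 1 within 100 kb of Septin5 and 1 at the start of Nfasc. The lowest of all, at chr9:122641267-122641847 and 105352 bp from Topaz1 (a germ cell gene), had a pileup of 100 fragments in control and 7 in Seh1cKO, a ratio of -2.95 (95% interval -4.30 to -1.85), and no peak in progenitors. The site 282362 bp from Has2 followed with 111 and 8 fragments (-2.90), and the one 319030 bp from Ncam1, the neural cell adhesion molecule, with 128 and 10 (-2.79). All 3 were far from the nearest gene, so which gene they belong to is not known from position.

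Inside genes, the site of Fyn at chr10:39421632-39422764 had 9.53 FPM in control, 1.48 in Seh1cKO and 0.983 in progenitor cells. Fyn is a Src-family kinase that acts in myelination. Its pileups were 174, 16 and 23 fragments, and the ratio of Seh1cKO to control was -2.55 (-3.39 to -1.81). A site within Nrp1, a semaphorin receptor, had 99, 9 and 10 fragments in the same order (-2.57), and one within Macrod2 had 92, 10 and 12 (-2.31). At these 3 sites, taken from those with the lowest ratio of Seh1cKO to control, the signal was high in control cells at day 1 and low in both other libraries.

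The start of Nfasc, whose promoter is printed above, was the sole start window among the 12 lowest sites. At chr1:132707091-132707861 it had 107 fragments in control, 11 in Seh1cKO and 44 in progenitor cells, or 5.86, 1.01 and 1.88 FPM. The ratio was -2.39 (-3.44 to -1.50). The start of Neu4 had 101, 17 and 48 fragments (-1.68), that of Chn2, which switches Rac off, 107, 20 and 54 (-1.53), and that of Scamp5, a secretory carrier protein, 170, 37 and 92 (-1.31). Control cells at day 1 were the highest of the 3 libraries in FPM at each of these starts, which were chosen for high control against Seh1cKO signal. By median, control day 1 was also highest at strong sites between the limits. The values there were 5.04 FPM in control, 4.70 in Seh1cKO and 3.55 in progenitor cells.

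Of the 49 strong sites at least 2-fold higher, 23 were start windows, against 21 of the 609 lower ones and 4314 of all 6806 strong sites. The highest ratios were smaller in size than the lowest. The start of Msh5, a meiotic recombination gene, had 45 fragments in control and 60 in Seh1cKO, 2.46 and 5.53 FPM, a ratio of 1.30 (0.72 to 1.90). Blm had 57 and 73 fragments (1.25) and Bysl 48 and 61 (1.24). Zfp628 had 46 and 57 (1.20), Tollip 48 and 59 (1.19) and Hsbp1, which encodes a heat shock factor binding protein, 51 and 62 (1.17). At each of the 12 highest sites Seh1cKO exceeded both control libraries in FPM. For control day 1 this follows from how the sites were chosen. Strong sites between the limits also had a higher median FPM in Seh1cKO (4.70) than in progenitor cells (3.55). The counting intervals of all 12 highest sites reached below 1.

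**Figure D3:**
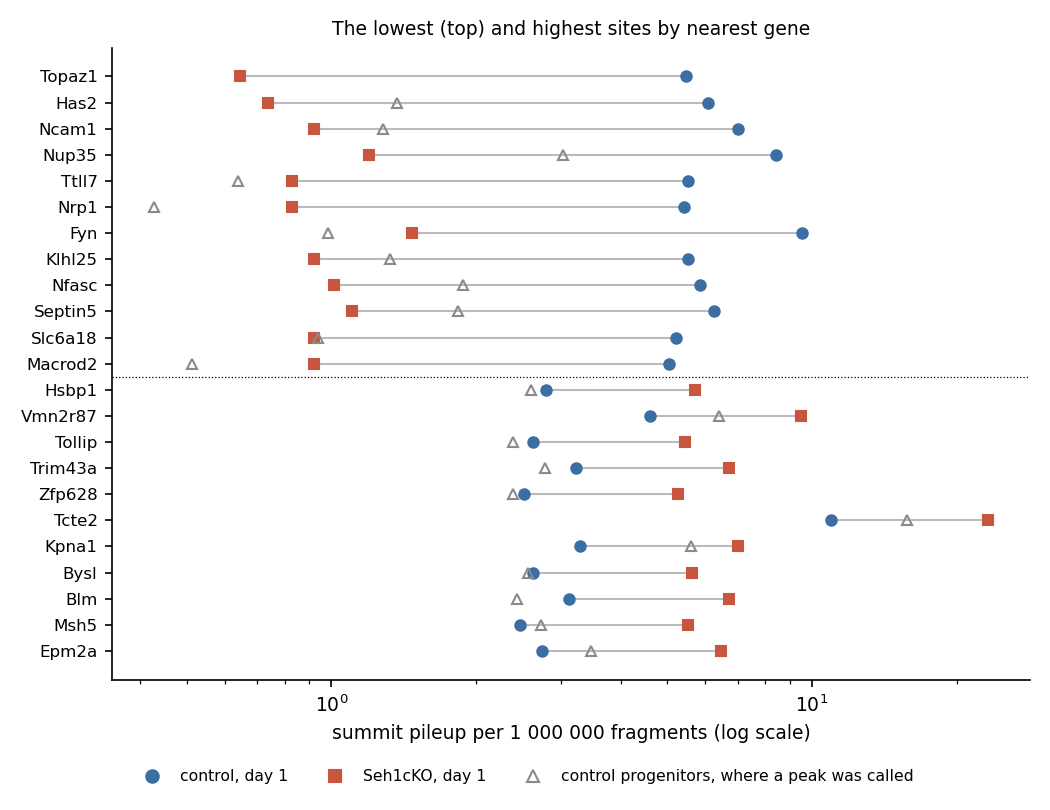
Summit pileup per 1000000 fragments (log scale) in control day 1 (circles), Seh1cKO day 1 (squares) and control progenitor cells (triangles, where a peak was called) at the 12 lowest and 11 of the 12 highest strong sites, labelled by nearest gene. The lowest sites lie at 5.04 to 9.53 FPM in control and at 0.645 to 1.48 FPM in Seh1cKO cells, and their progenitor values are below control day 1 wherever called.

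The limit of 2-fold cut through a continuous range. Just inside it on the lower side was a site of Clip3 with 89 fragments in control and 24 in Seh1cKO, and just outside one of Ptpro with 137 and 37. On the higher side a site of the same stretch of chromosome 9, nearest to Alkbh8, with 488 and 527 was just inside and Eef1g with 68 and 73 just outside.

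The progenitor library gives a further value for each site. Of the shared sites, 31919 (90.4%) had a progenitor peak. At the 609 strong sites that were at least 2-fold lower, the median FPM was 5.70 in control day 1, 2.03 in Seh1cKO and 2.65 in progenitor cells. At the 6148 sites between the limits it was 5.04, 4.70 and 3.55, and at the 49 higher sites 3.18, 6.27 and 3.33. Both ratios to control day 1 use the same control library, which was also used to choose the sites, so a low progenitor value beside a low Seh1cKO value is not independent of that choice. Sites without a progenitor peak were lower among those of 51 to 100 fragments: 54 of 105 (51.4%) were at least 2-fold lower, with a median of -1.06, against 13.6% of the 10327 with one. At 31 to 50 fragments the medians were -0.24 and -0.06, at 21 to 30 they were 0.15 and 0.19, and at 14 to 20 0.38 and 0.43. Pooled over all pileups, the order was the reverse away from start windows. There the 3034 sites without a progenitor peak had a median of 0.15, and 4.94% were at least 2-fold lower. The 20327 sites with one had a median of -0.15, and 12.2% were at least 2-fold lower. Their median summed pileups were unlike, at 25 without and 44 with a progenitor peak.

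Of 17 gene lists, that of myelin genes had the lowest median, and it kept that place under each of the 10 alternative settings tried. Myelin genes encode the proteins and lipid enzymes of the sheath. Their 84 shared sites (within the gene or 10 kb of it) had a median ratio of -0.40 (interval over sites -0.65 to -0.19), and 23 (27.4%) were at least 2-fold lower and 1 higher, beside 7.73% and 3.29% of all shared sites. Of 26 genes with a site, 10 had at least 1 site that was 2-fold lower, and the share over all genes was not computed. The 26 start-window sites had a median of -0.16 with 1 lower, and the 58 other sites -0.62 with 22 lower. Over all shared sites 0.838% of start-window sites and 11.2% of other sites were lower. Among 23 strong sites the median was -1.15 and 14 were lower, against 8.95% of all strong sites. Away from start windows it was 13 of 18 strong sites (median -1.25), against 588 of all 2492 such sites (23.6%, median -0.49). With the authors' fold enrichment in place of pileup the median over the list was -0.18.

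Single myelin genes showed sites of both kinds. Sirt2, a deacetylase abundant in oligodendrocytes, had sites inside the gene (exons are not tabulated here) at chr7:28768963-28769405 with 103 fragments in control, 14 in Seh1cKO and 26 in progenitors (-1.99) and at chr7:28783883-28784720 with 88, 13 and 22 (-1.87). Its start had 110, 74 and 109 fragments, a ratio of 0.32 (-0.13 to 0.76). So the sites inside the gene were low in Seh1cKO and its start was not.

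Enzymes of myelin lipids and other early myelin genes had low sites of the same kind. Enpp6, a choline phosphodiesterase of newly formed oligodendrocytes, had the lowest gene median among members with a strong site (-1.53), with sites of 85, 13 and 26 (-1.82) and 91, 17 and 21 fragments (-1.53) in control, Seh1cKO and progenitors. A site within Ugt8a, which makes galactosylceramide, had 105, 18 and 30 (-1.65), and its start 65, 22 and 62 (-0.67). Within Fa2h, which hydroxylates sphingolipid fatty acids, sites had 93, 19 and 54 (-1.40) and 105, 25 and 81 (-1.18).

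Structural and regulatory myelin genes were mixed. In Cnp, a myelin phosphodiesterase, a site within the gene had 84 fragments in control, 16 in Seh1cKO and 55 in progenitors (-1.50), and the start 53, 18 and 45 (-0.67). Bcas1, which marks cells at the onset of myelination, had a site with 138, 24 and 91 (-1.63). Itpr2, an intracellular calcium channel, had a site with 144, 25 and 46 (-1.64), while its start had 78, 40 and 63 (-0.07). Myrf, the transcription factor that switches on myelin genes, had an internal site with 56, 12 and 32 (-1.33) and a start with 44, 33 and 46 (0.47).

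Mbp, the major protein of compact myelin, had 3 internal sites about 2-fold lower, with 76, 19 and 38 (-1.11), 81, 21 and 47 (-1.06) and 61, 16 and 48 fragments (-1.04). Its end window had 20, 12 and 31 (0.15). Mog, a surface protein of the sheath, had the highest gene median among members with a strong site (0.25), with 22, 15 and 22 fragments at its start (0.34) and 111, 67 and 121 at a flanking site (0.16). Low sites were thus spread over part of the list and not over all of it: 10 of 26 genes had a site at least 2-fold lower. The gene median was below 0 for 19 of 26 genes. Over the 1408 genes with at least 5 shared sites, the middle gene median was itself below 0, at -0.11. Most of the 26 myelin genes had fewer than 5 shared sites, so these sets of genes are not alike.

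**Figure D4:**
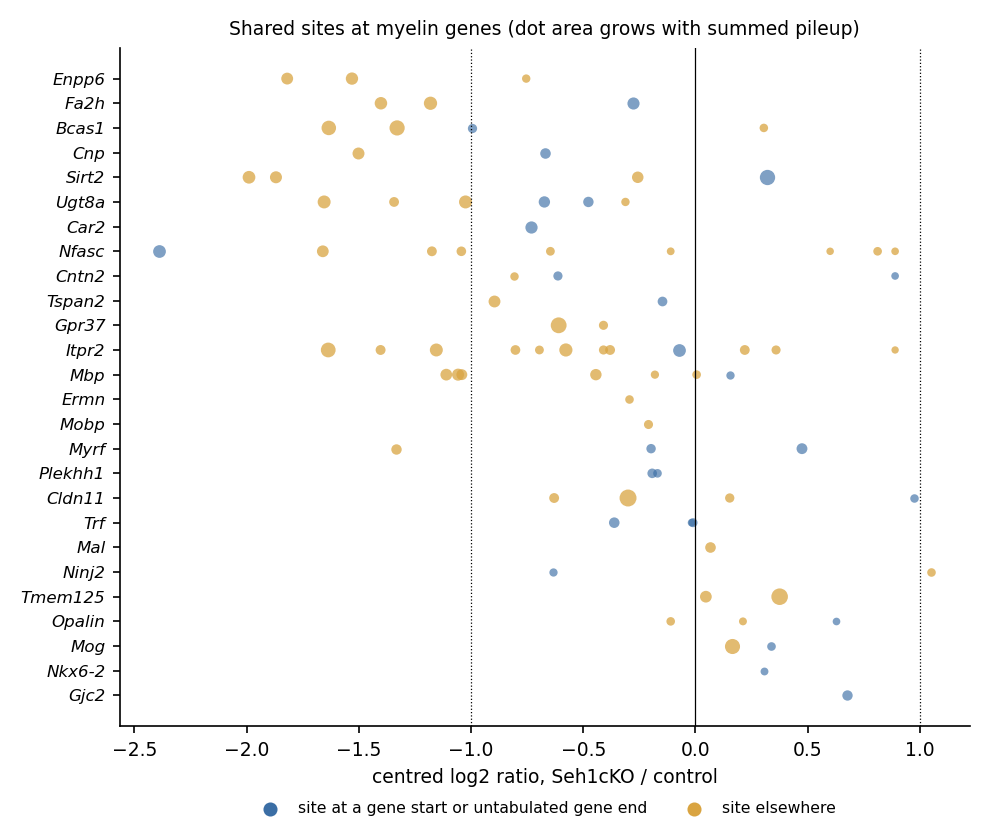
Centred log2 ratio of Seh1cKO to control (horizontal) for each shared site of 26 myelin genes (vertical, ordered by gene median), with blue for sites at gene starts or untabulated gene ends and gold for sites elsewhere. Dot area grows with summed pileup, and dotted lines mark 2-fold. Gold dots make up 22 of the 23 sites at least 2-fold lower, and the blue exception is the start of Nfasc at -2.39.

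Genes of progenitors were second lowest. Their 155 sites had a median of -0.30, with 21 (13.5%) at least 2-fold lower and 0 higher, beside 7.73% and 3.29% of all shared sites. Such a low site was present in 12 of 29 genes, and the share over all genes was not computed. The start-window median (-0.31, 33 sites) and that of other sites (-0.30, 122 sites) were close. Of these, 3 and 18 sites were at least 2-fold lower, against 0.838% of all start-window sites and 11.2% of all other sites. Among members with a strong site Neu4 had the lowest gene median (-1.32) and Lrrtm1, a synaptic adhesion gene, the highest (0.50). Gpr17, a receptor of cells about to differentiate, had 172 fragments in control, 47 in Seh1cKO and 129 in progenitors at its end (-0.98), and 145, 41 and 111 at a site within it (-0.93). Pdgfra, the PDGF-AA receptor, had a site with 124, 35 and 111 (-0.94) and another with 25, 16 and 37 (0.25), and Cspg4, the NG2 proteoglycan, one with 98, 24 and 80 (-1.14) and one with 105, 57 and 118 (0.01).

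Transcription factors of the lineage did not share that median. The 134 sites of 29 regulators had a median of 0.09 (-0.05 without centring). Of these, 9 (6.72%) were at least 2-fold lower and 5 (3.73%) higher, near the 7.73% and 3.29% of all shared sites. Among members with a strong site, Zfp488, a zinc finger protein of oligodendrocytes, was lowest (-0.84) with 106, 32 and 104 fragments in control, Seh1cKO and progenitors, and Chd8, a chromatin remodeller, highest (0.47). Sox10, which drives myelin genes, had 3 sites from -0.46 to -0.08, and the start of Sox8 had 51 and 34 fragments in control and Seh1cKO (0.30).

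Sites of the genes in the study's title lay on both sides of the median site. The start of Olig2 had 84 fragments in control, 55 in Seh1cKO and 88 in progenitors (0.28), and the site at chr16:91233280-91233983, 4603 bp from the gene, had 128, 32 and 103 (-1.11, interval -1.72 to -0.54). Sites of Olig1, its neighbour and paralog, had ratios of -0.17, -0.17 and 0.50. The start of Brd7 had 19, 20 and 35 fragments (0.96, interval -0.02 to 1.95). The end window of Seh1l had 70, 47 and 77 (0.32, interval -0.25 to 0.87). An accessible gene end does not show whether coding sequence was removed, so it is no check of the knockout label.

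Lists of general cell functions had medians above that of all sites, and most of their sites were start windows. The 71 sites of cell cycle genes had a median of 0.31, and those at starts (0.32) and elsewhere (0.31) were alike. Of the 71, 0 were at least 2-fold lower and 4 (5.63%) higher, beside 7.73% and 3.29% of all shared sites. Among members with a strong site, Ccnb1, a mitotic cyclin, was highest (0.73) with 60 fragments in control and 52 in Seh1cKO at a start, and Ccnd3, a G1 cyclin, lowest (-0.50). Ribosomal protein genes had a median of 0.26 over 61 sites, with 0.35 at the 51 start windows and -0.60 at the 10 other sites. Nucleoporins had 0.17 over 49, with 0.24 at 41 start windows and -0.34 at 8 other sites. Housekeeping genes had 0.20 over 48 (interval over sites -0.03 to 0.34), with 0.25 at 37 start windows and 0.06 at 11 other sites. The median of all 11930 start-window sites was 0.13. Without centring these medians stayed above 0, at 0.17 for cell cycle, 0.12 for ribosomal protein, 0.07 for housekeeping and 0.03 for nucleoporin genes.

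Lists of hormone and signal response were between. Thyroid response genes had a median of -0.13 over 68 sites, and it was 0.03 with the authors' fold enrichment. Of these sites, 5 (7.35%) were at least 2-fold lower and 2 (2.94%) higher, near the 7.73% and 3.29% of all shared sites. Klf9, a direct target of T3, had 75 fragments in control and 31 in Seh1cKO at a flanking site (-0.38) and 108 and 67 at its start (0.20), where progenitors had 86. A site within Thra, the main thyroid hormone receptor gene of the lineage, had 111, 30 and 50 fragments in control, Seh1cKO and progenitors (-0.998). It was the lowest of 4 sites of Thra, which had a median of 0.13 and a highest ratio of 0.50. Immediate early genes had a median of 0.02 over 57 sites, ERK feedback genes 0.03 over 44, and the start of Fos had 122 and 71 fragments in control and Seh1cKO (0.11). Sterol synthesis genes had a median of -0.01 over 43 sites, and the highest gene median among members with a strong site was 0.78 for Dhcr7. SWI/SNF subunits had 0.10 over 81 sites (-0.04 without centring), with Phf10, a PBAF subunit, highest among members with a strong site (1.00), and Id, Hes and Notch genes 0.12 over 49 (-0.02 without centring).

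Marker lists of other cell types the culture could hold were near the median site. Astrocyte markers had a median of 0.06 over 75 sites, neuron markers 0.12 over 49, microglia and macrophage markers 0.13 over 21 and endothelial and mural markers 0.12 over 31. Without centring they were -0.08, -0.02, -0.00 and -0.02. In bulk libraries fewer cells of a type and less open chromatin per cell cannot be told apart, here and for the myelin and progenitor genes above.

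**Figure D5:**
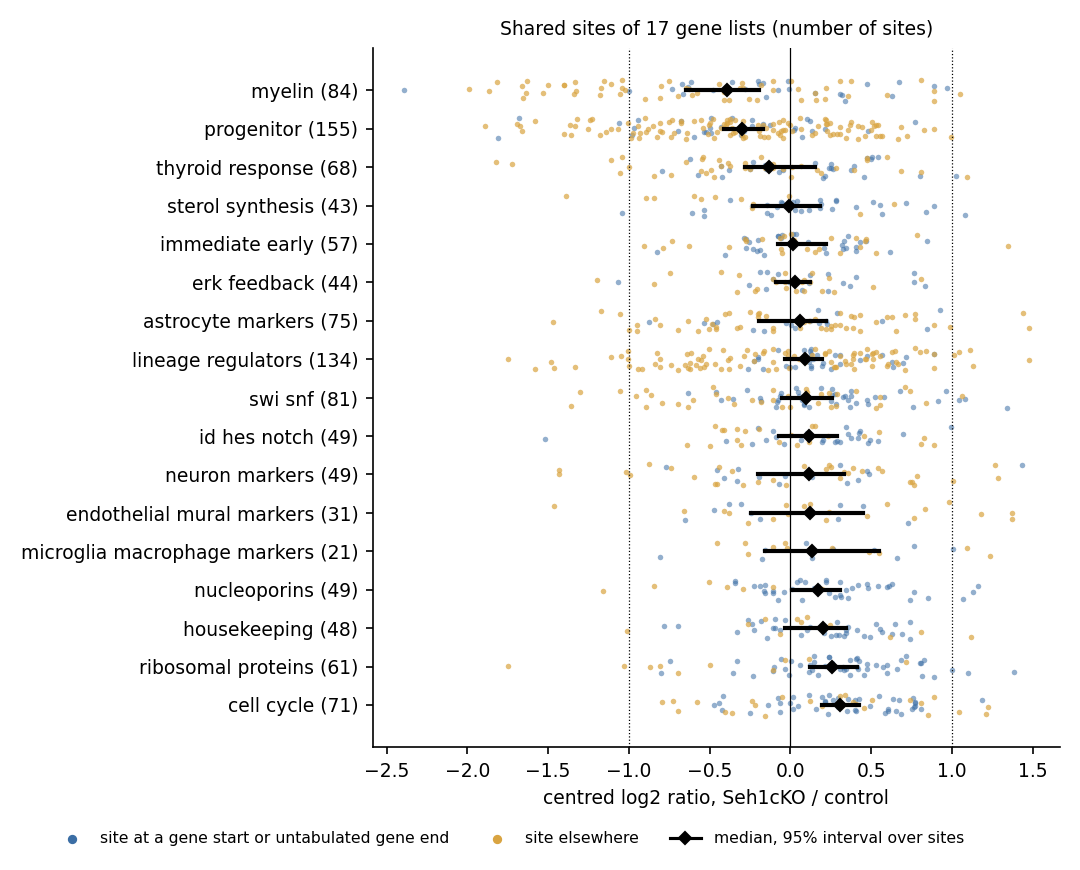
Centred log2 ratio of Seh1cKO to control (horizontal) of the shared sites of 17 gene lists (vertical, number of sites in brackets), blue at gene starts or untabulated gene ends and gold elsewhere. Black diamonds are list medians and black bars their 95% interval over sites. The medians run from -0.40 for myelin to 0.31 for cell cycle genes.

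Outside the lists, some genes had many low sites. Over the 1408 genes with at least 5 shared sites, gene medians had a 10th percentile of -0.49 and a 90th of 0.30. The lowest was Epb41l2, a membrane cytoskeleton protein, at -1.24 over 6 sites, 4 of them at least 2-fold lower. Dock9, a Cdc42 activator, followed at -1.21 over 8 sites, with 5 lower. Its lowest site had 67 fragments in control, 9 in Seh1cKO and 27 in progenitors (-2.01), and its starts had ratios of -0.78 and -0.38.

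Adgrb3, a C1q-like protein binding adhesion receptor, had a median of -1.05 over 9 sites, with 5 lower, and the site with the most fragments had 90, 20 and 78 in control, Seh1cKO and progenitors (-1.28). Shisal1 was at -1.13 and Tmem163, a zinc transporter, at -1.10. Myo3a (-1.11) differs in kind, because 4 of its 6 sites had summed pileups of up to 11878 fragments within a short stretch. By number of low sites, chosen after the values were seen, Trio, a guanine nucleotide exchange factor, had 8 of 19 sites at least 2-fold lower, Tnr, the matrix protein tenascin-R, 6 of 15 and Tns3, a tensin of differentiating oligodendrocytes, 5 of 14.

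The highest gene medians were 0.81 for Ttyh3, a chloride channel family member, 0.80 for Klc4, a kinesin light chain, and 0.79 for Fam107b. The predicted genes Gm40364 and Gm40363, at 0.81 and 0.79, overlap in their windows and share sites. Ttyh3 also held 1 site that was at least 2-fold lower, with 39 and 9 fragments in control and Seh1cKO (-1.23).

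Along the genome, 1560 windows of 1 Mb held at least 10 shared sites. The lowest medians were -0.75 on chromosome 4 at 142000001 to 143000000 (25 sites; Kazn, Prdm2 and Tmem51), -0.75 on chromosome 10 at 21000001 to 22000000 (13 sites; Hbs1l, Myb and Sgk1) and -0.75 on chromosome 1 at 25000001 to 26000000 (12 sites; Adgrb3). The window with Tnr and Cop1 on chromosome 1 had -0.73 over 19 sites. The highest, 0.73, was on chromosome 9 at 3000001 to 4000000, where 37 sites had a median summed pileup of 688. Chromosome medians ran from -0.07 for chromosome 16 to 0.11 for chromosome 7, which had 31.4% and 40.4% of sites in start windows. They also differed within each class, with medians of 0.05 and 0.23 at start windows and -0.18 and -0.02 elsewhere. Chromosome 19, with the largest share in start windows (42.5%), had a median of 0.03.

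Strong control peaks with no Seh1cKO peak were few. Of 8383 autosomal control peaks with a pileup of at least 60, 129 (1.54%) had none, and 116 of these lay away from gene starts. How many of all 8383 lay away from gene starts was not computed, so the 116 cannot be compared with that share. Apart from peaks of low enrichment at the start of chromosome 9, the strongest were in Ehd3, an endocytic ATPase gene (113 fragments), in Wdr95 (110) and near Rnf8, a ubiquitin ligase gene (102).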

How the data were processed

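The submitters' processing notes name Bowtie2, SAMtools, MACS2 and the build mm10. Each library's peaks were called on its own with MACS 2.1.2_dev, per the file headers, from paired-end fragments with duplicates kept, no control, q 0.05, maximum gap 50 bp, minimum length 100 bp and a local background of 10000 bp. Amplified copies can therefore build a pileup. The deposited tables give summit pileup (signal, in fragments), fold enrichment (ratio to local background), and −log10 p and q. A shift of reads for the transposase cut is not stated in the sources used.

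Peaks were joined, scaled and centred with Python 3.11 (pandas, scipy). Ratio intervals are exact Clopper-Pearson at 95%, and median intervals are order-statistic over sites. The joining and ratios were checked on simulated peaks. Genes and starts are RefSeq GRCm38.p6: 21887 protein-coding genes, 17492 with a tabulated start, and both ends for the rest, including all of chromosome 18. Named sites and genes were the extremes of pileup ratio (12 sites, 10 start windows and 8 gene medians each way), of width (5) and of 1 Mb windows (5), each list's extreme members and the study's genes, with sites needing a summed pileup of 100. Members, lists and rules were chosen with earlier results of these data known. Of 8 motifs searched, CCAAT is reported. A few named genes are not reported here.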

Additional observations from a re-analysis of the deposited data

Results flagged for a closer look

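Sex chromosomes were outside the comparison. Chromosome Y had 14 sites called in both libraries, and their median ratio, centred on the autosomal median, was 0.21, above 0, the level of the median autosomal site. Y had 29 peaks in control and 33 in Seh1cKO cells, and the median FPM (summit pileup per 1000000 fragments) at these shared sites was 3.78 in control and 2.58 in Seh1cKO cells. The 815 shared sites of X had a median of -0.02. The animals' sex is not given in the labels used here, and no difference was tested.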

How the results depend on the processing

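No paired analysis was possible because each group has 1 library. With sites restricted to −log10 q of at least 10, 14530 shared sites remained, with an uncentred median of -0.053, 741 lower and 178 higher sites, a width median of -0.22 and a start-minus-other difference of medians of 0.29 (0.25 as reported). With a summed pileup of at least 100 these were 6806, -0.14, 603, 49, -0.19 and 0.61, and the myelin median was -1.15. With the authors' fold enrichment, the uncentred median was -0.24, with 1247 lower and 383 higher sites, a start-minus-other difference of 0.24 and a myelin median of -0.18. Centring within deciles of summed pileup gave a difference of 0.30. Without centring 615 sites were higher, and the median of gene ends with no tabulated start reversed from 0.11 to -0.023. Requiring 50% of the shorter peak to overlap gave an uncentred median of -0.15, and requiring summits within 100 bp gave -0.15, a width median of -0.32 and a difference of 0.28. Leaving out sites of summed pileup over 1000, chosen after seeing the data, moved none of the values for sites, width, position or lists beyond its spread. Of 388 values for 47 named sites, 371 stayed within the counting interval and 0 reversed, and of 170 list medians 159 stayed within their interval. Of 50 medians of position classes 26 did, 23 moved and 1, given above, reversed. Depth limits what can be read: at 20 fragments or fewer the lowest callable pileups bound the ratio, and the part of depth in the narrower Seh1cKO peaks was not tested.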

Other observations

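At 51 shared sites on 14 chromosomes the summed pileup was over 1000 fragments, with medians of 82.9 FPM in control, 64.6 in Seh1cKO and 67.8 in progenitor cells. Their median ratio was 0.27, with 12 sites at least 2-fold lower and 2 at least 2-fold higher. Of the 51, 15 lay in 1 stretch of 35 kb at chr9:3000007-3035275, with ratios from 0.26 to 1.10 that include both higher sites. The 36 sites outside it, a split chosen after seeing the data, had a median of -0.61. Among the 12 lower ones were the sites within Myo3a, a myosin gene of hair cells, where the highest had 9393 fragments in control, 2485 in Seh1cKO and 5915 in progenitors (-1.03). At these pileups counting error is small, and the copies of a fragment that were kept cannot be told apart from separate molecules.

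The highest median of the 1560 windows of 1 Mb with at least 10 sites was on chromosome 9 at 3000001 to 4000000 (37 sites, 0.73), which holds that stretch. Chromosome 11 at 9000001 to 10000000, with Abca13 and Hus1, followed (10 sites, 0.60). Next were chromosome 8 at 20000001 to 21000000, which holds a beta-defensin gene among predicted genes (33 sites, median 0.58), and chromosome 14 at 5000001 to 6000000 (15 sites, 0.55) and at 3000001 to 4000000 (13 sites, 0.54). Reads from near-identical copies can be placed at any of them, so values in the last 3 windows, where predicted genes are many, are uncertain.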
